A study of Homo sapiens with 5 samples.

Results

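MALAT1, NEAT1, KCNQ1OT1 and SNHG14 are 4 long non-coding RNAs that stay largely in the nucleus, and their rows were taken by gene symbol from the 36601 genes counted in single nuclei of a mixture of lung cancer lines. The mixture held 5 established human lung adenocarcinoma lines, A549, H1975, H2228, H838 and HCC827, for which the labels give no treatment or genetic change. They were grown apart to near confluence in RPMI medium with serum and antibiotics, frozen as single cells, pooled in equal amounts and processed as nuclei with the 10x Multiome kit, which captures polyadenylated RNA and open chromatin (ATAC) from the same nucleus. The droplets were divided into an 80% portion and a 20% portion, each of which gave 1 RNA library and 1 ATAC library. Both portions come from the same pool of cells, so they are not biological replicates, and with 1 library per portion no test between groups was possible. Every interval below is an exact 95% interval that covers counting error only. Intervals of ATAC values treat each count as independent and may be too narrow.

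MALAT1 is retained at nuclear speckles, the compartments where splicing factors gather. NEAT1 is the scaffold of paraspeckles, nuclear bodies that hold RNA-binding proteins such as NONO and SFPQ, and its gene is a close neighbour of MALAT1. KCNQ1OT1 is an imprinted antisense RNA made from the paternal copy of an intron of KCNQ1, where it is linked to silencing of neighbouring genes, and SNHG14 is the long paternal transcript of the Prader-Willi region, host of clustered small nucleolar RNAs and antisense to UBE3A. The mature end of MALAT1 is not a conventional poly(A) tail but an encoded A-rich tract folded into a triple helix, and the long NEAT1 isoform ends in a similar way.

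The 80% portion held 6557 nuclei with 95455518 RNA UMIs (unique molecular identifiers, each marking 1 captured RNA molecule), with a median of 13306 UMIs and 8784 ATAC counts per nucleus. The 20% portion held 1286 nuclei with 14346346 UMIs, with medians of 10540.5 UMIs and 9156.5 ATAC counts. The labels give 9700 nuclei in all, against 7843 barcodes summed over the matrices of the portions and 7682 in the deposited matrix of both portions together. In both portions 159 barcodes were called, which is 12.4% of the 20% portion and 2.42% of the 80% portion. The sum holds each of these barcodes once per portion. Mitochondrial genes took 0.736% and 0.709% of UMIs, and Scrublet called 385 and 80 nuclei doublets. All 5 epithelial markers were detected, with a summed level between 1373 and 9201 CPM (UMIs scaled to a common library total) over the clusters described below. Of 5 leukocyte markers, CD68 (21.2 CPM) was the only one above 1, the 3 endothelial markers summed to at most 9.27, and of the fibroblast markers COL1A1 reached 243 CPM in a cluster while DCN had 3 UMIs in all.

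MALAT1 (ENSG00000251562, hg38 chr11:65497640-65508073, plus strand, all of it exonic in at least 1 of its 66 annotated transcripts) was the most abundant RNA in both portions. It gave 3053966 UMIs in the 80% portion, 3.199% of all UMIs (3.196 to 3.203), and 442886 UMIs in the 20% portion, 3.09% (3.078 to 3.096). In the 80% portion it had 6.11 times the UMIs of the next gene, S100A6 (0.524%), which encodes a calcium-binding protein. NEAT1 (ENSG00000245532, chr11:65422774-65445540, plus strand, all exonic over 9 transcripts) ranked 34 in the 80% portion with 167055 UMIs, 0.175% (0.174 to 0.176), and 22 in the 20% portion with 27731 UMIs, 0.193% (0.191 to 0.196). Per kilobase of annotated exon MALAT1 had 292694 UMIs and NEAT1 7338 in the 80% portion. Each UMI marks a captured molecule of any length, so values per kilobase are no count of molecules.

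The imprinted RNAs were far rarer. SNHG14 (ENSG00000224078, chr15:24978583-25420336, plus strand, 27.8% of the span exonic) had 9061 UMIs in the 80% portion, a level of 94.9 CPM (93.0 to 96.9; CPM is the share in percent times 10000), and 1407 in the 20% portion, or 98.1 CPM (93.0 to 103). KCNQ1OT1 (ENSG00000269821, chr11:2597308-2700003, minus strand, 90.2% exonic) had 3987 UMIs, or 41.8 CPM (40.5 to 43.1), and 647 UMIs, or 45.1 CPM (41.7 to 48.7). Their ranks in the 80% portion were 2229 and 5060. Per kilobase of annotated exon they had 73.9 and 43.0 UMIs there. SNHG14 shares its strand with SNRPN (3783 UMIs), which it overlaps at its start, and lies antisense to UBE3A (11293 UMIs), while KCNQ1 (185 UMIs) is antisense to KCNQ1OT1. The labels and methods do not say how reads in such overlaps were assigned.

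The libraries were primed on runs of A, so the longest A-rich stretch of the transcribed strand is shown for the 2 abundant RNAs, with runs of at least 4 A in capitals (hg38, plus strand, chr11:65506077-65506136 in MALAT1 and chr11:65440823-65440882 in NEAT1).
MALAT1 A-rich tract: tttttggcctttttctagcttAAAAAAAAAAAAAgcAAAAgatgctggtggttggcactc
NEAT1 A-rich tract: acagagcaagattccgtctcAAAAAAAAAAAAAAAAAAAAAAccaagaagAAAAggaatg
The MALAT1 stretch held the only run of 10 or more A in the gene, 13 bases long, and lies 1957 bases before the annotated gene end. Its last bases run into the tRNA-like sequence that is cut from the end of the MALAT1 transcript. The NEAT1 stretch lies 4678 bases before the annotated gene end and was not matched to the end of the long isoform. NEAT1 held 5 runs of 10 or more A, KCNQ1OT1 18 and SNHG14 63 over their spans. Per kilobase these were 0.0958 in MALAT1, 0.220 in NEAT1, 0.175 in KCNQ1OT1 and 0.143 in SNHG14, against 0.158 per strand over chromosome 11 and 0.187 over chromosome 15.

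Starts were compared with open chromatin, and the sequence around the SNURF start is shown because open chromatin there is described by cluster further on. It runs from 250 bases before to 50 bases after the annotated start, 5′ to 3′ on the transcribed strand, with CpG dinucleotides in capitals, the target of DNA methylation that marks imprinted copies. The window is hg38 chr15:24954737-24955036 (plus strand) and lies upstream of SNHG14, in the region from which the long paternal transcript is known to be read.
SNURF start: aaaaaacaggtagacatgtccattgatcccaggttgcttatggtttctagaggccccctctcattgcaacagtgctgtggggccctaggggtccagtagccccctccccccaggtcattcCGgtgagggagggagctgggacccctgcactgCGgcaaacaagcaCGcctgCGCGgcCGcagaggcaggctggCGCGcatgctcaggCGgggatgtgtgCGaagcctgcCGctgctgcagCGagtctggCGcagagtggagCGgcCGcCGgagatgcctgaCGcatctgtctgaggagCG
The SNURF window held 18 CpGs, against a median of 14 over 35116 promoter windows of the same length in the RefSeq table (GRCh38.p14), of which 44.5% had at least as many. The matching windows held 34 CpGs at MALAT1, 21 at NEAT1 and 2 at the annotated SNHG14 start. Searched on both strands, the letters GGGCGG occurred 5 times at MALAT1, 1 time at NEAT1 and not at SNURF or SNHG14, and they occur in 45.0% of all promoter windows. TATAAA was found 1 time at NEAT1 and not at the other 3 starts (11.5% of all promoters), and CCAAT (34.6%), CCGGAAG (10.3%) and GCGCATGCG (1.92%) at none of the starts of MALAT1, NEAT1, SNHG14 and SNURF.

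The portions gave nearly the same shares. The MALAT1 share was 0.965 times as high in the 20% as in the 80% portion (0.962 to 0.968), that of NEAT1 1.10 times (1.09 to 1.12), that of KCNQ1OT1 1.08 times (0.992 to 1.17) and that of SNHG14 1.03 times (0.976 to 1.09). The intervals of KCNQ1OT1 and SNHG14 include 1. Of 10435 genes with at least 1000 UMIs in the 80% portion, 0.153% differed more than 1.5-fold between portions, and 0 of the 4 RNAs did. With clusters weighted as in the 80% portion the ratios were 0.9504 for MALAT1 and 1.08 for NEAT1.

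MALAT1 was found in nearly every nucleus. In the 80% portion 5 of 6557 nuclei had no MALAT1 UMI, and in the 20% portion 1 of 1286. The median nucleus of the 80% portion had 376 MALAT1 UMIs, 2.85% of its total, with a 5th to 95th percentile of 0.625% to 6.16% and a maximum of 12.5%. In the 20% portion the median was 2.73% and these percentiles were 0.634% and 5.94%, so the spread over nuclei was alike in both. NEAT1 had a median of 19 UMIs per nucleus in the 80% portion, 0.138% of the total, with 0.0261% to 0.432% between the 5th and 95th percentiles and 65 nuclei at 0. The variance over nuclei thinned to 1000 UMIs each was 11.01 times the mean for MALAT1 and 1.99 times for NEAT1, where counting alone gives about 1. For KCNQ1OT1 and SNHG14 the same quantity was 1.11 for both. Their thinned means were 0.0464 and 0.0950 UMIs per nucleus, at which little spread beyond counting can show. Without thinning it was 2.03 and 2.42, values that also hold differences in depth.

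Detection of the rarer RNAs followed depth. After thinning to 1000 UMIs, 99.8% of nuclei in the 80% portion had MALAT1, 70.7% had NEAT1 (69.6 to 71.8), 8.62% had SNHG14 (7.95 to 9.32) and 4.30% had KCNQ1OT1 (3.82 to 4.82). In the 20% portion, where 1 shallower nucleus was left out, these shares were 99.8%, 72.5%, 10.1% and 5.06%. Without thinning 99.0% of nuclei in the 80% portion had NEAT1, 57.1% had SNHG14 and 33.6% had KCNQ1OT1. No cell type that should lack these genes is in the mixture, so the share that free RNA gives was not measured. In the cluster with the least KCNQ1OT1, described below as cluster 2, 10 of 1452 nuclei had a UMI of it without thinning, 0.689%, against 56.0% of cluster 0.

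Nuclei of the 80% portion were clustered on RNA without the 4 RNAs and the genes that overlap them, 12 genes in all. The resolution was raised until at least 5 clusters, as many as there were lines, each held at least 1% of nuclei. This gave 5 clusters, a number asked for in advance and so no finding. No file ties a cluster to a line, so clusters are given by number and leading gene. Cluster 0 (2475 nuclei) was led by PPP2R2B, cluster 1 (1460) by RBFOX3, cluster 2 (1452) by AC069277.1, cluster 3 (843) by AC073365.1 and cluster 4 (327) by AC090578.1. Better known genes in the same order, chosen after their values were seen, were MEG3, ALDH1A1, LINC02055, DHRS2 and EGFR. Clusters from ATAC counts held between 96.4% and 99.4% of each RNA cluster in 1 partner. Nuclei of the 20% portion were given the cluster whose mean profile they correlated with most (513, 255, 307, 157 and 54 nuclei). The same rule applied to the 80% portion gave 97.9% of its nuclei their original cluster. Those nuclei also made the profiles, so this share does not measure how well the 20% portion was assigned.

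MALAT1 was highest in cluster 0. In the 80% portion its summed share was 3.80% in cluster 0, 2.29% in cluster 1, 3.17% in cluster 2, 2.68% in cluster 3 and 2.52% in cluster 4. The same clusters gave 3.72%, 2.07%, 2.92%, 2.40% and 2.64% in the 20% portion. Cluster 0 was thus highest and cluster 1 lowest in both, while clusters 3 and 4 changed places. The fold of cluster 0 over cluster 1 was 1.66 (1.65 to 1.67) in the 80% and 1.80 (1.78 to 1.81) in the 20% portion, below the median of 2.20 for the highest over the lowest cluster among all 10435 genes.

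NEAT1 followed a similar order over clusters with a wider range. Its shares in clusters 0 to 4 of the 80% portion were 0.220%, 0.109%, 0.175%, 0.141% and 0.0924%. Those of the 20% portion were 0.246%, 0.111%, 0.188%, 0.135% and 0.111%. Cluster 0 was highest and cluster 2 next in both, and the intervals of clusters 1 and 4 overlapped in the 20% portion. The fold of cluster 0 over cluster 4 was 2.38 (2.31 to 2.46) in the 80% and 2.22 (2.05 to 2.40) in the 20% portion. After thinning to 1000 UMIs, 79.6% of cluster 0 nuclei and 48.6% of cluster 4 nuclei of the 80% portion had a NEAT1 UMI.

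**Figure D1:**
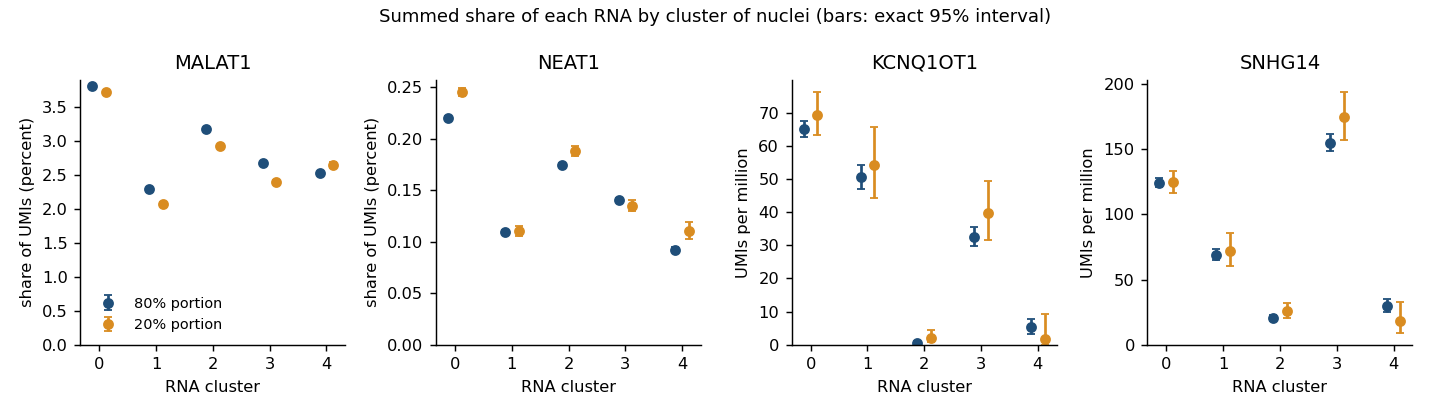
Summed share of each RNA (y axes, percent of UMIs for MALAT1 and NEAT1 and CPM for KCNQ1OT1 and SNHG14) in the 5 RNA clusters (x axes) of the 80% portion and the 20% portion, with exact 95% intervals. MALAT1 and NEAT1 are highest in cluster 0, and KCNQ1OT1 and SNHG14 are lowest in clusters 2 and 4 in both portions.

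Nuclei of the same cluster differed far more than cluster means did. In cluster 0 of the 80% portion MALAT1 took between 0.804% and 6.89% of a nucleus' UMIs from the 5th to the 95th percentile, and in cluster 1 between 0.625% and 4.16%. The medians of these clusters were 3.69% and 2.07%. For NEAT1 the same percentiles were 0.0485% and 0.564% in cluster 0 and 0.0177% and 0.254% in cluster 1. Ranges over nuclei include counting error, which weighs more for NEAT1. Its median was 30 UMIs per nucleus in cluster 0 and 8.5 in cluster 1, against 594 and 199.5 for MALAT1. The ranges of all 5 clusters overlapped for both RNAs.

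**Figure D2:**
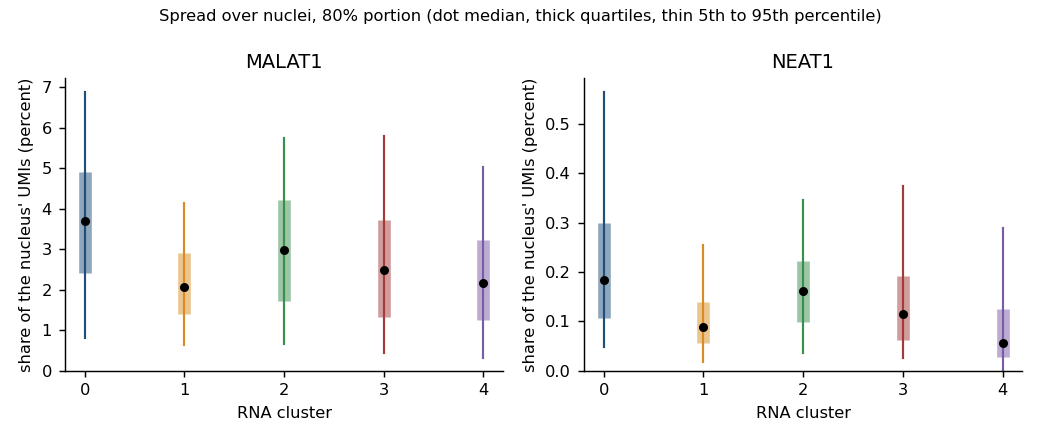
Share of each nucleus' UMIs (y axes, percent) taken by MALAT1 and NEAT1 in the 5 clusters of the 80% portion (dot, median over nuclei; thick bar, quartiles; thin line, 5th to 95th percentile). The ranges of the clusters overlap for both RNAs, with medians from 2.07% to 3.69% for MALAT1 and from 0.0560% to 0.183% for NEAT1.

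KCNQ1OT1 was lowest in clusters 2 and 4. In the 80% portion it had 65.1 CPM in cluster 0, 50.5 in cluster 1, 0.628 in cluster 2, 32.7 in cluster 3 and 5.22 in cluster 4. The 20% portion had levels of 69.5, 54.2, 2.15, 39.8 and 1.68. The 12 UMIs of cluster 2 in the 80% portion and 2710 of cluster 0 gave a fold of 103.6 (59.2 to 200.8). The 20% portion gave a fold of 32.3 (15.6 to 80.9), from 7 UMIs in cluster 2.

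Doublet calls held a part of what was left in those clusters, and that part differed by cluster and portion. Of the 12 UMIs in cluster 2 of the 80% portion 3 were in nuclei called doublets, as were 15 of the 25 in cluster 4. All 7 UMIs of cluster 2 and the 1 UMI of cluster 4 in the 20% portion were in such nuclei. Without doublets KCNQ1OT1 stood at 0.475 CPM (0.217 to 0.902) in cluster 2 and 2.40 (1.15 to 4.42) in cluster 4 of the 80% portion. For the 20% portion both clusters were then at a count of 0, for which a floor of 3 counts was taken, 1.01 CPM in cluster 2 and 5.75 CPM in cluster 4. Against these floors the 72.6 CPM of cluster 0 was at least 72.2-fold and 12.6-fold higher. These folds divide an estimate by the floor and are not limits of a 95% interval, whose upper ends for the counts of 0 were 1.24 CPM in cluster 2 and 7.07 CPM in cluster 4.

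SNHG14 was low in the same clusters. Its levels in clusters 0 to 4 of the 80% portion were 124, 68.8, 20.5, 155 and 30.1 CPM. The 20% portion gave 124, 72.2, 26.1, 175 and 18.5. Cluster 3 was highest, cluster 0 next and clusters 2 and 4 lowest in both portions, and clusters 2 and 4 could not be ordered, since their intervals overlapped in the 20% portion and, without doublets, in the 80% portion. The fold of cluster 3 over cluster 2 was 7.57 (6.80 to 8.45) in the 80% and 6.71 (5.28 to 8.60) in the 20% portion. Of the genes tested, 21.8% differed more than 4-fold between their highest and lowest cluster, and 2 of the 4 RNAs did, KCNQ1OT1 and SNHG14.

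Open chromatin at the KCNQ1OT1 start was low in the same clusters as its RNA. The peak over the start had an ATAC level of 22.5 CPM (counts scaled to the ATAC total of the cluster) in cluster 0, 36.9 in cluster 1, 0.321 in cluster 2, 11.1 in cluster 3 and 2.84 in cluster 4 of the 80% portion. With its own peaks, the 20% portion had 25.4, 45.1, 0.930, 25.8 and 0. Clusters 2 and 4 were lowest on both measures, but cluster 1 had the most accessible start and not the most RNA. Cluster 3 differed between the portions, with intervals of 9.18 to 13.3 and 18.9 to 34.4. The 652 counts of cluster 0 in the 80% portion came from 315 nuclei. Counts of the same nucleus may not be independent, so these intervals may be too narrow.

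SNHG14 had no peak within 1000 bp, or within 2000 bp, of the stretch that the files give as its starts. The SNURF start upstream, chosen after the values of SNHG14 were seen, had a peak at chr15:24954563-24955439. Its ATAC CPM in clusters 0 to 4 of the 80% portion were 2.69, 8.03, 0.214, 7.25 and 0. The 20% portion, counted in its own 89384 peaks against 158342 in the 80% portion, gave 7.47, 11.8, 0.930, 4.48 and 2.98. Cluster 2 was low in both portions, cluster 4 had 0 counts in the 80% and 2 in the 20% portion, and cluster 0 differed between the portions (2.13 to 3.36 against 5.49 to 9.93). The part of the different peaks in the values of cluster 0 was not tested. This peak held 246 counts in the 80% portion, so it resolves large differences only. Peaks within the SNHG14 span did not follow its RNA. In the 80% portion 2 such peaks gave 2.76, 0.353, 3.31, 3.67 and 0.516 ATAC CPM in clusters 0 to 4, and in the 20% portion 1 peak gave 0.954, 0, 4.18, 2.24 and 0, highest in cluster 2.

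**Figure D3:**
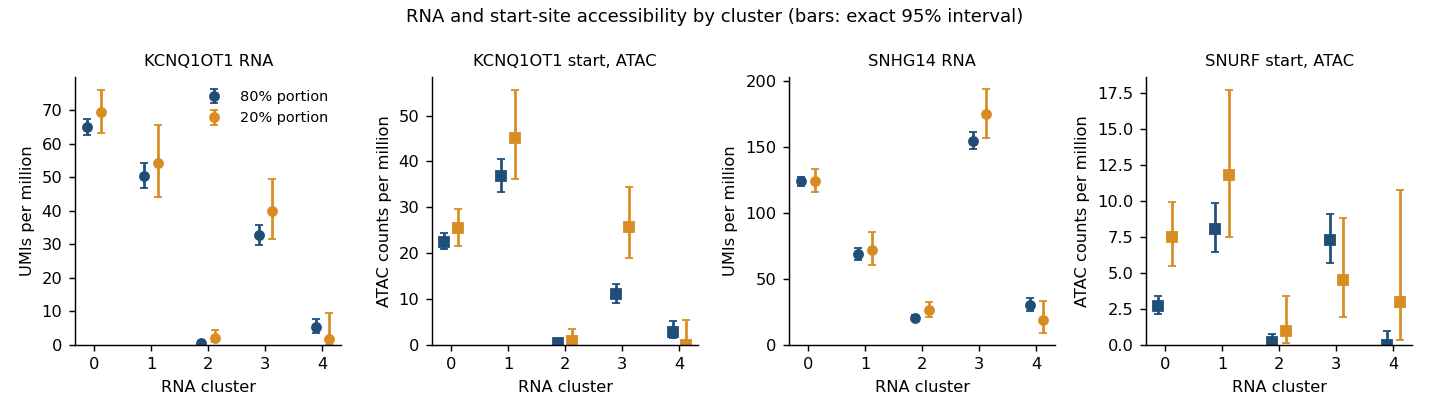
RNA of KCNQ1OT1 and SNHG14 (circles, CPM) and ATAC CPM (squares) in the peak at the KCNQ1OT1 start and at the SNURF start, by RNA cluster in both portions, with exact 95% intervals. Clusters 2 and 4 are lowest in every panel, with a wide interval for cluster 4 at the SNURF start in the 20% portion.

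Genes beside the imprinted RNAs moved in several directions. Of 15 listed genes of the chromosome 15q11 region, 12 were rows of the files and 6 had at least 1000 UMIs, of which 4 differed more than 4-fold between clusters, with a median fold of 13.8 (21.8% and 2.20 over all genes tested). SNRPN, a splicing protein gene read from the paternal copy, had 43.0, 43.4, 5.96, 79.6 and 7.52 CPM in clusters 0 to 4, the pattern of SNHG14 and of low clusters 2 and 4. NDN, another paternally read gene, had 32.6 in cluster 0 and between 2.30 and 4.18 elsewhere. ATP10A was at 1.15 in cluster 2 and between 24.2 and 66.0 elsewhere. UBE3A, the ubiquitin ligase gene to which SNHG14 is antisense, ranged from 88.2 to 132 CPM.

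On chromosome 11p15, 6 of 11 listed genes had enough UMIs and 2 differed more than 4-fold between clusters, against 21.8% of all genes tested. CDKN1C, a cell cycle inhibitor gene read from the maternal copy, had 44.1, 12.97, 76.6, 22.1 and 19.2 CPM in clusters 0 to 4. It was highest in cluster 2, where KCNQ1OT1 was lowest, but not raised in cluster 4. SLC22A18, a transporter gene, had 39.2, 62.0, 16.0, 13.7 and 19.6. CD81 and PHLDA2, with the most UMIs of the list, spanned 1.66-fold and 2.55-fold. Unlike CDKN1C, PHLDA2 was lowest in cluster 2, at 87.6 CPM against 137 to 223 elsewhere.

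Accessibility at the MALAT1 and NEAT1 starts was not in the order of their RNA. The 3 peaks within 1000 bp of the stretch of MALAT1 starts summed to 91.9, 103, 126, 61.8 and 71.0 ATAC CPM in clusters 0 to 4 of the 80% portion. The peak at the first start, chr11:65497133-65498042, alone had 73.4, 78.2, 86.5, 48.7 and 59.1, and the others lie further into the gene. The NEAT1 peak chr11:65422090-65422970 had 71.7, 78.4, 93.7, 51.6 and 52.6. Cluster 2 had the highest ATAC level at both genes, and clusters 3 and 4 the lowest, with intervals that overlapped at both, while cluster 0 had the highest RNA share of both. MALAT1 starts of the 20% portion, where the sum holds 2 peaks, gave 88.1, 91.3, 128, 59.4 and 64.0. The NEAT1 start there gave 76.8, 93.3, 85.5, 49.3 and 49.1. The most at NEAT1 was in cluster 1, with an interval that overlapped that of cluster 2. Of 14 other genes of the 11q13 neighbourhood, 13 had enough UMIs and 1 passed 4-fold between clusters (21.8% of all genes tested did), SIPA1 (75.4 CPM in cluster 2 and between 13.4 and 20.3 elsewhere). CAPN1, a protease gene with the most UMIs of that list, spanned 1.68-fold.

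Genes that act with MALAT1 and NEAT1 were also compared between clusters, where 21.8% of all genes tested passed 4-fold and the median fold was 2.20. Of 20 paraspeckle protein genes 1 passed 4-fold, with a median fold of 1.52, and of 19 tested speckle and splicing genes 0 did, also with a median of 1.52. HNRNPA1 and HNRNPK, the most counted paraspeckle genes, spanned 1.52-fold and 1.29-fold. The gene past 4-fold was SMARCA4, a chromatin remodelling ATPase, at 38.5 CPM in cluster 1 and 230 in cluster 3. SON, a core speckle protein gene, and SRSF2, a splicing factor gene, each spanned 1.37-fold. Of 8 genes for the ends and stability of these RNAs 0 passed, and METTL16, which binds the MALAT1 triple helix, had 102 CPM in cluster 1, where MALAT1 was lowest, and 41.8 in cluster 0, where it was highest.

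Of 17 other long non-coding RNAs tested, 4 passed 4-fold between clusters, a share near the 21.8% of all genes tested, and their median fold was 2.64 against 2.20 over all genes. MEG3, an imprinted maternal RNA, had 308 CPM in cluster 0 and between 1.05 and 20.3 elsewhere. PVT1 ranged from 293 in cluster 2 to 1562 in cluster 3 and GAS5 from 122 in cluster 1 to 511 in cluster 4. FTX, an RNA of the X inactivation region, ranged from 308 in cluster 2 to 660 in cluster 0. Of the 13 mitochondrial genes 1 passed 4-fold, MT-ND3 with 5.99-fold, and the median fold was 2.94.

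The MALAT1 share rose with the depth of the nucleus. In deciles of RNA UMIs of the 80% portion it was 2.08% in the lowest, 2.33% in the second, 2.96% in the fourth, 3.37% in the sixth, 3.52% in the eighth and 3.41% in the highest. For the 20% portion the lowest decile had 2.11%, the sixth 3.41% and the highest 3.398%. The rise took place over the lower deciles and the share was level above the sixth. The log2 ratio of the lowest to the highest decile was -0.71 (-0.72 to -0.70) in the 80% and -0.69 in the 20% portion. With deciles of ATAC counts it was -0.30 in the 80% portion. The 20% portion then had 2.10% in the lowest and 3.50% in the highest decile, so the smaller ratio was not seen there.

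Over all clusters together NEAT1 and SNHG14 were lower in shallow nuclei too, a direction that did not hold within several clusters (below). NEAT1 took 0.123% of UMIs in the lowest decile of the 80% portion, 0.202% in the seventh and 0.168% in the highest. The log2 ratio of lowest to highest was -0.45 (-0.49 to -0.41), which was -0.30 without doublets and -0.07 with deciles of ATAC counts. With the latter the 20% portion had 0.154% in the lowest and 0.184% in the highest. SNHG14 rose from 66.1 CPM in the lowest to 110 in the ninth and 108 in the highest decile, a log2 ratio of -0.70 (-0.89 to -0.52). KCNQ1OT1 had 49.4 in the lowest and 41.1 in the highest decile of the 80% portion, a log2 ratio of 0.27 (0.04 to 0.49). The 20% portion had 35.0 and 39.3, a log2 ratio of -0.17. That value rests on 16 UMIs in the lowest decile, and the intervals of both deciles overlapped, so its direction was not resolved. With deciles of ATAC counts the ratio was -0.22 in the 80% portion, and the 20% portion had 25.4 in the lowest and 48.4 in the highest. The direction of KCNQ1OT1 over all nuclei together thus differed between the measures of depth. The median log2 ratio over all genes tested was -0.08, 16.5% of genes were more than 1.5-fold lower in the lowest decile and 8.83% more than 1.5-fold higher. MALAT1 and SNHG14 were among the former, and 0 of the 4 RNAs were among the latter. Of the protein lists, 2 of 20 paraspeckle genes (SMARCA4 and NUDT21) and 0 of 19 speckle and splicing genes were more than 1.5-fold lower in the lowest decile, while METTL16 was the 1 of 8 end processing genes that was higher, by 0.64 on the log2 scale.

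**Figure D4:**
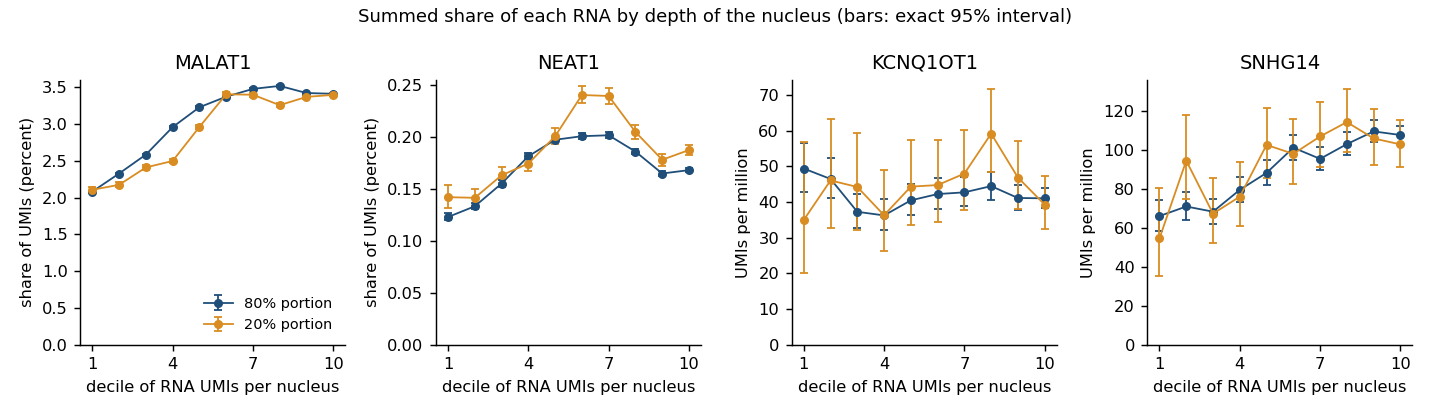
Summed share of each RNA (y axes, percent of UMIs or CPM) in deciles of RNA UMIs per nucleus (x axes, 1 the shallowest) of the 80% and the 20% portion, with exact 95% intervals. MALAT1 goes from 2.08% to 3.41% in the 80% portion and is level above the sixth decile, and NEAT1 is highest near the seventh.

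The make-up of the deciles differed as well. Cluster 1, with the lowest MALAT1 share, held 64.9% of nuclei in the lowest and 5.18% in the highest decile of the 80% portion, and cluster 0 held 11.9% and 56.7%. Doublet calls made up 0.915% of the lowest and 40.5% of the highest decile, and the mitochondrial share of UMIs was 0.867% and 0.822%. Quintiles of depth were therefore set within each cluster. Doublets were kept in them, and their part in the values by quintile was not tested. From the lowest to the highest quintile MALAT1 went from 3.51% to 3.94% in cluster 0, from 1.85% to 2.53% in cluster 1, from 2.35% to 3.54% in cluster 2, from 2.60% to 2.68% in cluster 3 and from 1.97% to 2.75% in cluster 4. In the 20% portion the lowest over the highest quintile was 0.822 in cluster 0, 0.724 in cluster 1, 0.666 in cluster 2, 0.878 in cluster 3 and 0.570 in cluster 4. MALAT1 was thus lower in the shallowest than in the deepest quintile of every cluster in both portions. The margin was smallest in cluster 3 (0.970 in the 80% portion), where the share did not rise steadily with depth. From the shallowest to the deepest quintile cluster 3 had 2.60%, 2.99%, 2.57%, 2.59% and 2.68% in the 80% portion. In the 20% portion it had 2.31%, 2.60%, 2.17%, 2.12% and 2.63%.

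For NEAT1 the direction depended on the cluster. In the 80% portion the lowest over the highest quintile was 1.39 (1.36 to 1.42) in cluster 0 and 1.29 (1.23 to 1.34) in cluster 3, but 0.895 in cluster 1, 0.805 in cluster 2 and 0.883 in cluster 4. The 20% portion gave 1.22 in cluster 0, 1.11 in cluster 3, 0.917 in cluster 1, 0.868 in cluster 2 and 0.881 in cluster 4. The directions were the same in both portions, although the intervals of clusters 1, 3 and 4 in the 20% portion included 1. The mean log2 ratio over clusters, with deciles within each, was -0.41 for MALAT1 and -0.01 for NEAT1.

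The imprinted RNAs were also taken by quintile within clusters. For SNHG14 in the 80% portion the lowest over the highest quintile was 1.04 (0.947 to 1.15) in cluster 0. Cluster 1 gave 1.09 (0.876 to 1.35) and cluster 3 gave 1.24 (1.08 to 1.42). These ratios were not below 1, unlike that of the lowest to the highest decile over all nuclei. Clusters 2 and 4, where the RNA was lowest, gave 0.897 (0.630 to 1.26) and 0.609 (0.302 to 1.12). The mean log2 ratio over clusters was -0.17. Of these 5 intervals that of cluster 3 was the only one without 1, and the 20% portion gave 0.859 (0.649 to 1.12) in cluster 0 and 1.35 (0.913 to 1.98) in cluster 3. KCNQ1OT1 in the 80% portion was higher in the shallowest quintile of the 3 clusters with most of it, with ratios of 1.47 (1.29 to 1.66) in cluster 0, 1.31 (1.02 to 1.68) in cluster 1 and 1.35 (1.002 to 1.79) in cluster 3. In cluster 4 it had 0 UMIs in the shallowest and 12.1 CPM in the deepest quintile. Of the 25 UMIs of cluster 4, 15 were in nuclei called doublets, which were kept here, so these values cannot be read as an effect of depth. In the 20% portion the ratio was 1.71 (1.22 to 2.37) in cluster 0, while the intervals of cluster 1 (0.275 to 1.70) and cluster 3 (0.506 to 3.15) included 1.

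**Figure D5:**
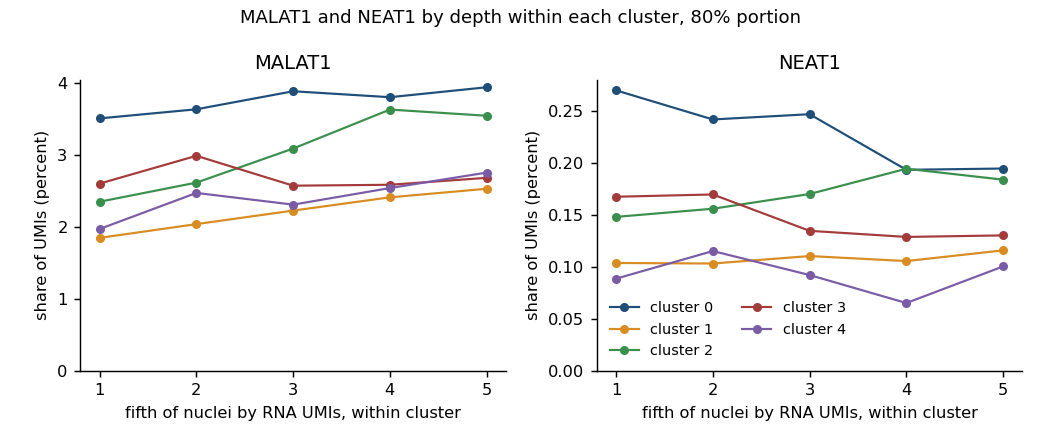
MALAT1 and NEAT1 shares (y axes, percent of UMIs) in quintiles of nuclei by RNA UMIs (x axes, 1 the shallowest) set within each of the 5 clusters of the 80% portion. MALAT1 is higher in the deepest than in the shallowest quintile of every cluster, whereas NEAT1 falls in clusters 0 and 3 and is higher in the deepest quintile of clusters 1, 2 and 4.

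MALAT1 and NEAT1 varied together from nucleus to nucleus. After cluster means were removed, their log levels had r = 0.63 over the 6557 nuclei of the 80% portion and r = 0.58 over the 1286 of the 20% portion. Each was the gene most like the other among 4199 genes compared, those with at least 5000 UMIs and the 4 RNAs. These nuclei share a library and each correlation a denominator, so r is given as a description. Next for MALAT1 were LPP (0.41 and 0.34 in the portions), MAML2 (0.40 and 0.35), FTX (0.38 and 0.37) and ZBTB20 (0.37 and 0.33). Next for NEAT1 were AOPEP (0.37 and 0.32), FTX (0.37 and 0.32), ZBTB20 (0.35 and 0.31) and MAML2 (0.33 and 0.29). The lists share FTX, ZBTB20 and MAML2.

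The genes with the most negative correlation with MALAT1 were HSP90AA1, a chaperone gene (-0.48 in both portions), PTTG1, the securin gene (-0.46 and -0.45) and CCNB1, the cyclin B1 gene (-0.45 and -0.39). For NEAT1 they were TUBA1B, a tubulin gene (-0.44 and -0.39), H2AFZ, a histone variant gene (-0.41 and -0.34) and HSP90AA1 (-0.40 in both). The correlations of KCNQ1OT1 and SNHG14 with any gene of the 80% portion reached at most 0.15 and 0.17, which in such sparse counts is no finding. For KCNQ1OT1 the leading genes were MUC5AC (0.15), NEAT1 (0.15), BBS9 (0.14), NBEA (0.13) and MALAT1 (0.12), and for SNHG14 MALAT1 (0.17), FTX (0.14), NEAT1 (0.13), DST (0.13) and NBEA (0.12).

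NEAT1 was lower in nuclei with the most G2/M transcripts. The 330 nuclei of the 80% portion at or above the 95th percentile of the summed share of 15 G2/M genes within their cluster had 0.126% NEAT1 against 0.178% in the rest, a fold of 0.706 (0.689 to 0.723). The 66 such nuclei of the 20% portion had 0.142% against 0.197%, a fold of 0.722 (0.681 to 0.765). The fold was below 1 in each of the 5 clusters of both portions, between 0.536 and 0.783 in the 80% portion. SNHG14 gave 0.794 (0.719 to 0.876) and 0.562 (0.412 to 0.749), and KCNQ1OT1 0.705 (0.600 to 0.823) and 0.909 (0.628 to 1.28). The G2/M nuclei were deeper, with a median of 16025 against 13207 UMIs in the 80% portion, and the part of depth in these folds was not tested.

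MALAT1 had no common direction in the same nuclei. It took 4.61% of UMIs in G2/M nuclei of cluster 0 against 3.75% in the rest, and 1.79% against 3.25% in cluster 2. These values in the 20% portion were 5.24% against 3.62% in cluster 0 and 1.67% against 2.996% in cluster 2. Folds were 1.23 and 1.45 in cluster 0 and 0.550 and 0.558 in cluster 2, for the 80% and the 20% portion in turn. In cluster 1 they were 0.9004 and 0.844. Clusters 3 and 4 gave 0.924 and 1.24 in the 80% portion and went the other way in the 20% portion, where they rest on 8 and 3 nuclei. Pooled over clusters the fold was 1.05 (1.04 to 1.05) in the 80% and 1.13 (1.12 to 1.14) in the 20% portion, which hides the opposite directions of clusters 0 and 2. Of the 15 G2/M genes 14 were themselves more than 1.5-fold lower in the shallowest decile, against 16.5% of all genes tested. TOP2A and CENPF, the most counted, were among the 14.

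The 159 barcodes called in both portions gave a comparison at the same barcode. On the side with fewer ATAC counts MALAT1 took 2.37% of summed UMIs and on the other side 3.51%, a fold of 0.675 (0.664 to 0.687), and it was lower on that side for 146 barcodes. NEAT1 took 0.157% against 0.194%, a fold of 0.806 (0.754 to 0.861), and was lower for 113. For KCNQ1OT1 the fold was 0.718 (0.434 to 1.15) and for SNHG14 0.873 (0.649 to 1.16), both with intervals that include 1. Mitochondrial genes took 0.887% on the side with fewer ATAC counts and 0.709% on the other. Whether both sides of a barcode hold the same nucleus was not tested.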

How the data were processed

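RNA and ATAC counts per nucleus were taken from the matrices the authors deposited, which hold raw counts (UMIs per gene, and ATAC counts per peak) made with Cell Ranger ARC 2.0.0 on GRCh38 per the labels. The gene annotation and the counting of intronic reads are not given in the sources used here. Long-read libraries were not analysed here. Some neighbouring genes and a start sequence are not reported here. The 4 RNAs, the gene lists and the comparisons were chosen with earlier results of these data known. Shares are summed UMIs over all UMIs of a group of nuclei, with exact 95% binomial intervals, and folds have exact conditional intervals. Both cover counting error only, and with 1 library per portion no test was run. For ATAC values they treat each count as independent, although a nucleus often held more than 1 count in a peak. Clusters were made from log-normalised counts (2000 variable genes, 30 components, from scanpy), without the 4 RNAs and the genes that overlap them. Seurat 5.3.0 in R 4.3.3 then gave the neighbours (20) and the Louvain clusters. The resolution of 0.05 was the lowest tried that gave at least 5 clusters of at least 1% of nuclei each. All other steps used Python 3.11.15 with scanpy 1.11.5 and scipy 1.17.1. Doublets were called by Scrublet (expected rate 0.06) and kept unless stated. Genes with at least 1000 UMIs in the 80% portion form the background for folds. Genes were named by rule: for each RNA the 5 most correlated genes, and the leading gene of each cluster. In each list the rule took the 2 genes with the most UMIs and genes past a fold, up to 4. Some genes that this rule covers, such as MT-CO3, MT-CO1 and UBE2C, were left unnamed in the results. The 3 most negative correlations and several neighbours were named after their values were seen. Sequences were read from the hg38 genome, with gene spans from GENCODE v44. Scripts were tested on simulated data. Alternatives covered doublets, shared barcodes, depth filters, denominators, cluster and decile choices and peak windows.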

Additional observations from a re-analysis of the deposited data

How the results depend on the processing

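Of 177 values under alternative settings, 94 stayed within the counting interval of the main value, 81 moved outside it and 2 reversed. Both reversals were the KCNQ1OT1 log2 ratio of lowest to highest depth decile (0.27), which was -0.17 in the 20% portion and -0.22 with deciles of ATAC counts. The value of the 20% portion rests on 16 UMIs in its lowest decile, with decile intervals that overlapped. The cause was not tested. With deciles of ATAC counts this ratio was -0.30 for MALAT1, -0.070 for NEAT1 and -0.50 for SNHG14. As a mean over clusters it was -0.41, -0.0074 and -0.17, and it could not be computed for KCNQ1OT1, which had deciles with no UMI. With quintiles it was -0.62 for MALAT1 and -0.37 for NEAT1. In the 20% portion it was -0.69 for MALAT1, -0.40 for NEAT1 and -0.91 for SNHG14, and the log2 ratio of highest to lowest cluster was 0.84, 1.15, 2.75 and, for KCNQ1OT1, 5.02. In that portion 72.5%, 5.06% and 10.1% of thinned nuclei had NEAT1, KCNQ1OT1 and SNHG14. With ATAC clusters the cluster ratio was 0.70 for MALAT1 and 5.43 for KCNQ1OT1.

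Without doublets MALAT1 took 3.19% and NEAT1 0.174% of UMIs in the 80% portion, their cluster ratios were 0.78 and 1.42, and the depth ratio of NEAT1 was -0.30. With equal weight per nucleus MALAT1 took 3.04% and 2.89% in the 80% and 20% portions, NEAT1 0.171% and 0.187%, and SNHG14 88.9 and 92.0 CPM, and for MALAT1 the cluster and depth ratios were 0.76 and -0.74. Without MALAT1 and mitochondrial genes in the denominator MALAT1 stood at 3.33% and 3.21%, NEAT1 at 0.182% and 0.201%, KCNQ1OT1 at 43.5 and SNHG14 at 98.8 CPM in the 80% portion, and the MALAT1 cluster and depth ratios were 0.75 and -0.73. With at least 1000 ATAC counts and 500 UMIs per barcode MALAT1 took 3.21% and 3.11%, a log2 ratio of 20% to 80% of -0.046. Without the barcodes called in both portions it took 3.10% in the 20% portion, with a log2 ratio of -0.0464. The matrix of both portions together gave 3.18% MALAT1 and 0.177% NEAT1.

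Detection depended on depth by construction. Thinned to 2000 UMIs, 99.9% of nuclei had MALAT1, 86.5% NEAT1, 7.92% KCNQ1OT1 and 15.7% SNHG14, and without thinning 99.9%, 99.0%, 33.6% and 57.1%. With peaks within 2000 bp, which adds peaks, MALAT1 had 141, 143, 201, 93.9 and 127 ATAC CPM in clusters 0 to 4 and NEAT1 139.9, 149.8, 160.2, 101 and 100.4. The peaks of the 20% portion gave 88.1 and 91.3 for MALAT1 in clusters 0 and 1, 76.8, 93.3 and 85.5 for NEAT1 in clusters 0 to 2, and 25.4, 45.1, 25.8 and 0 for KCNQ1OT1 in clusters 0, 1, 3 and 4.

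No paired analysis was possible because each portion is 1 library with no replicate numbers, and no result comes from a test. The 159 barcodes called in both portions are compared as values only. KCNQ1OT1 values in clusters 2 and 4 rest on 12 and 25 UMIs in the 80% portion. The portions share a pool of cells, and the clusters were not matched to lines.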
